A study of Capra hircus with 2 samples.

Results

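The let-7 family is described here by its 9 listed members in the goat mammary gland, which are miR-98 and the forms a, b, c, d, e, f, g and i of let-7. They were taken from the study's list of 346 conserved goat miRNAs, without the star forms. A read was counted for a member when it was identical to the listed sequence for at least 18 nt from the 5′ end, whatever its 3′ end, and each read went to the member with the longest match. The study asked how the miRNAs of the mammary gland differ between the dry period and peak lactation. Small RNA was sequenced in 2 libraries, 1 per stage, and each was made from RNA pooled from 3 Xinong Saanen dairy goats, which the study describes as 2.5 years old, with no treatment named. The sample titles name the stages as dry period and peak lactation, and the titles were followed. The labels give 75 days after lambing for the dry period and 320 days for peak lactation, whereas the study's text gives these days the other way round, and the extraction label names 30 and 320 days, so the days are not used below. If the titles rather than the days were exchanged, every direction given below would turn. The study's text assigns the library totals to the stages as the titles do. With 1 pooled library per stage, no test between stages was possible. All intervals are 95% Wilson intervals or derive from them, and they cover counting error only, since PCR reads without molecular identifiers are not independent molecules. Differences between goats and between library preparations are not measured.

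Members of the let-7 family are among the most conserved animal miRNAs. They repress messenger RNAs that pair with their seed, and are known for their accumulation in differentiated cells, for restraining genes of growth such as RAS, HMGA2 and MYC, and for the block on their maturation by LIN28. After cutting by Drosha and Dicer, the 3′ end of a mature miRNA can be shortened by exonucleases or extended by nucleotidyltransferases that add uridine or adenosine, which gives end variants called isomiRs.

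The 9 mature sequences are shown because every measurement below depends on how little they differ. Each is written 5′ to 3′ as the study lists it, with the seed (bases 2 to 8) in capitals.
let-7a: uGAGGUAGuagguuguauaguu
let-7b: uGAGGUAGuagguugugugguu
let-7c: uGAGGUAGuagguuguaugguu
let-7d: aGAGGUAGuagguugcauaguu
let-7e: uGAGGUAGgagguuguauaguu
let-7f: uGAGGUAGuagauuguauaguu
let-7g: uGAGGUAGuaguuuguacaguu
let-7i: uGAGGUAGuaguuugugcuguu
miR-98: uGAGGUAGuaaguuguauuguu
All 9 shared the seed GAGGUAG and all were 22 nt long, so no length correction was made in comparing their read counts. How evenly the library preparation captured the different sequences was not measured. Counted from 1 at the 5′ end, let-7a differs from let-7c by A19G alone, from let-7e by U9G alone and from let-7f by G12A alone, and let-7c differs from let-7b by A17G alone. let-7a and let-7c are identical over their first 18 bases, so reads that ended or diverged there could not be told apart and were kept as a separate class.

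Depth was 14851375 clean reads in the dry period library against 15712891 at peak lactation. Of these, 61.15% were assigned to listed conserved miRNAs in the dry period but 14.42% at peak lactation. The remaining 38.85% and 85.58% were not assigned, and can include miRNA reads with a shifted start, a mismatch or no listed sequence. The study's text counts fewer reads matched to miRNA precursors than this in the dry period and many more at peak lactation. The source of this disagreement was not examined, and every ratio per miRNA read rests on the total used here. Among miRNAs that mark cell types, all 6 listed for mammary epithelium (miR-200a, miR-200b, miR-200c, miR-141, miR-429 and miR-205) had reads, and their sum was 2687 reads per 1000000 clean reads (RPM) in the dry period against 1342 RPM at peak lactation. The 3 red blood cell miRNAs summed to 109.9 and 189.5 RPM, the 2 smooth muscle miRNAs to 11846 and 5199 RPM, and the 4 striated muscle miRNAs to 7241 and 3847 RPM. The striated muscle sums were nearly all miR-1, at 7175 and 3835 RPM. Endothelial miR-126 stood at 112.9 and 67.59 RPM, and hepatic miR-122 at 4.175 and 1.718 RPM. Per miRNA read, all 6 epithelial miRNAs were instead higher at peak lactation, as were miR-126, miR-122, 3 of the 4 striated muscle miRNAs and 1 of the 2 smooth muscle miRNAs, so the direction of these markers turned with the total. The part of tissue composition in the let-7 results was not tested, and in such bulk tissue fewer cells of a type and less RNA per cell cannot be told apart.

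Reads of the let-7 family were the largest component of the dry period library and were much scarcer at peak lactation. They numbered 6917051 in 2217 unique tags in the dry period against 1221414 in 1171 unique tags at peak lactation. This was 46.58% of clean reads (interval 46.55 to 46.6) against 7.773% (7.76 to 7.787), which was 5.992 times lower at peak lactation, a log2 ratio of -2.58 (interval -2.59 to -2.58). As a share of miRNA reads the family stood at 76.17% and 53.9%, a log2 ratio of -0.50. The family was the majority of miRNA reads in both libraries, and its difference depended on the total by which it was divided. For let-7 without miR-98, the study's text gives a lower share of clean reads than here in the dry period. It gives a much higher share at peak lactation, so its difference between stages is smaller. For let-7b and let-7c, however, the study lists ratios per clean read close to those given below. The source of the disagreement was not examined.

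let-7f and let-7a were the most abundant members in both libraries. let-7f stood at 183034 RPM in the dry period against 43170 RPM at peak lactation, and let-7a at 176294 and 22729 RPM. let-7b followed at 48725 and 3534 RPM. let-7c stood at 25749 and 1914 RPM. let-7g, which differs from let-7f by A12U and U18C, stood at 16817 and 4338 RPM, so that let-7g lay below let-7b and let-7c in the dry period and above both at peak lactation. let-7e stood at 7428 and 776.7 RPM. let-7i stood at 3380 and 652 RPM, and let-7d at 3302 and 426.8 RPM. These last 2 differed by little in the dry period (intervals 3351 to 3410 and 3273 to 3331 RPM) and by more at peak lactation. miR-98 was the scarcest member in both, at 331.4 and 44.29 RPM, or 185.8 and 25.84 RPM when counted only by reads with its listed base at position 19.

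**Figure D1:**
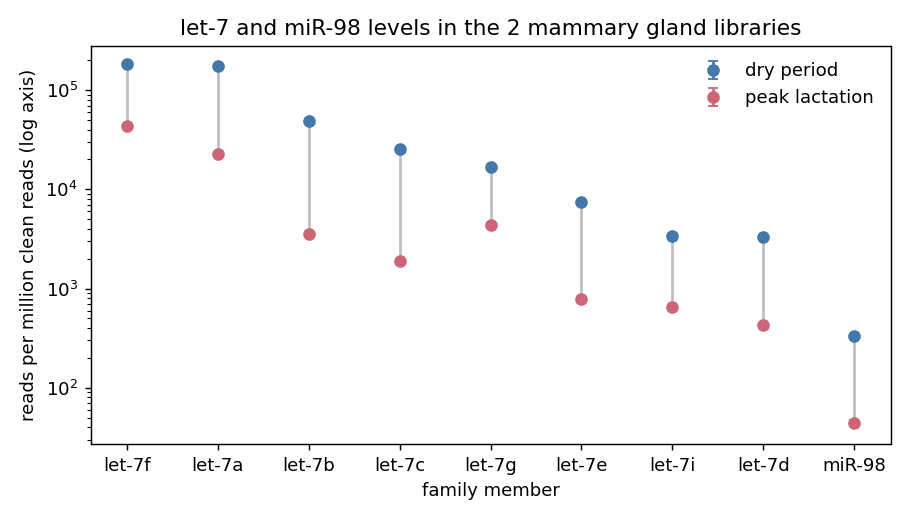
Level of each let-7 family member, in RPM on a log axis, in the dry period library (blue) and the peak lactation library (red); bars are 95% intervals of counting error and are mostly smaller than the points, and grey lines join the libraries. Every member lies lower at peak lactation, with let-7b going from 48725 to 3534 RPM and let-7g from 16817 to 4338 RPM.

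Relative to clean reads, the log2 ratio of peak lactation to dry period was below -1 for 9 of 9 members, and 70.4% of the 257 tested miRNAs (at least 1 RPM in either library) also lay below -1, so a low ratio by itself did not set the family apart. The median was -2.95 over the members and -1.44 over all tested miRNAs. let-7b and let-7c had the lowest ratios, at -3.79 (interval -3.80 to -3.77) and -3.75 (-3.77 to -3.73), which is 13.79 and 13.45 times lower at peak lactation. let-7e followed at -3.26, then let-7a at -2.96, let-7d at -2.95 and miR-98 at -2.90. let-7i (-2.37), let-7f (-2.08) and let-7g (-1.96) had the smallest differences. The intervals of let-7a (-2.96 to -2.95), let-7d (-2.99 to -2.92) and miR-98 (-3.02 to -2.79) overlapped, so these 3 did not differ in ratio beyond counting error.

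Relative to miRNA reads, which sets aside the larger share of unassigned reads at peak lactation, 3 of 9 members lay below -1, against 7.39% of all tested miRNAs. They were let-7b at -1.70, let-7c at -1.67 and let-7e at -1.17. let-7f took 29.93% of miRNA reads in both libraries, a log2 ratio of 0.00 (interval -0.004 to 0.004), and let-7g was slightly higher at peak lactation at 0.13 (0.12 to 0.14). The median over the members was -0.87 on this scale, while that of all tested miRNAs was 0.65. The direction for let-7f and let-7g therefore rested on the total. With TMM factors of edgeR, which put the median of all tested miRNAs at -0.14, let-7f stood at -0.78 and let-7g at -0.66, and with size factors of DESeq2, which put that median at -0.04, they stood at -0.69 and -0.56. All 9 members lay below 0 under both of these scalings, from -0.66 to -2.49 and from -0.56 to -2.39. The median of all tested miRNAs was also below 0 but much nearer to it. How many of all tested miRNAs lay below 0 was not counted for these scalings. Of the members, 7 and 6 lay below -1, against 20.2% and 18.3% of all tested miRNAs. Divided by miRNA reads outside the family, 7 members lay below -1, against 26.1%.

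**Figure D2:**
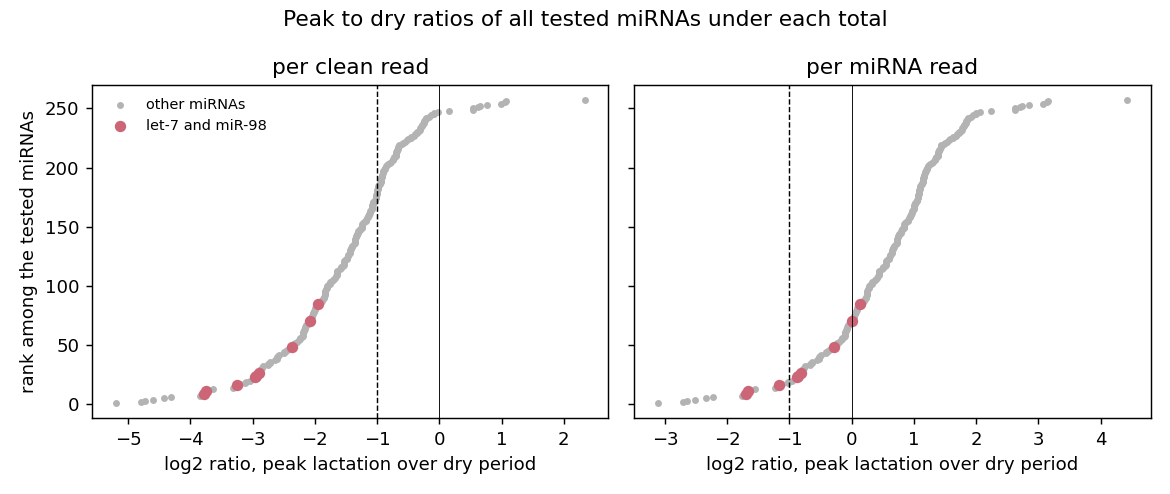
Log2 ratios of peak lactation over dry period of the 257 tested miRNAs in rank order, per clean read (left) and per miRNA read (right), with the 9 let-7 family members in red and a dashed line at -1. Dividing by miRNA reads moves every miRNA by the same amount, and leaves let-7b, let-7c and let-7e below -1.

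The make-up of the family therefore differed between the libraries. let-7f went from 39.3% of family reads (interval 39.26 to 39.33) to 55.54% (55.45 to 55.62), a difference of 16.24 percentage points that lay far outside counting error. let-7a went from 37.85% to 29.24%, let-7b from 10.46% to 4.546% and let-7c from 5.528% to 2.462%. let-7g took 3.611% and 5.581%. In the dry period let-7f and let-7a were nearly equal, with 1.038 reads of let-7f per read of let-7a, and at peak lactation there were 1.899. let-7e took 1.595% and 0.9992%, let-7i 0.7257% and 0.8388%, let-7d 0.709% and 0.549%, and miR-98 0.07116% and 0.05698%. Reads shared by let-7a and let-7c were 0.1486% and 0.1916% of the family and are in none of these member shares. At peak lactation they were 2340 reads beside the 30071 of let-7c, so the share of let-7c is the one they bear on most among the abundant members. These proportions do not depend on the total, since both members of a ratio come from the same library.

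**Figure D3:**
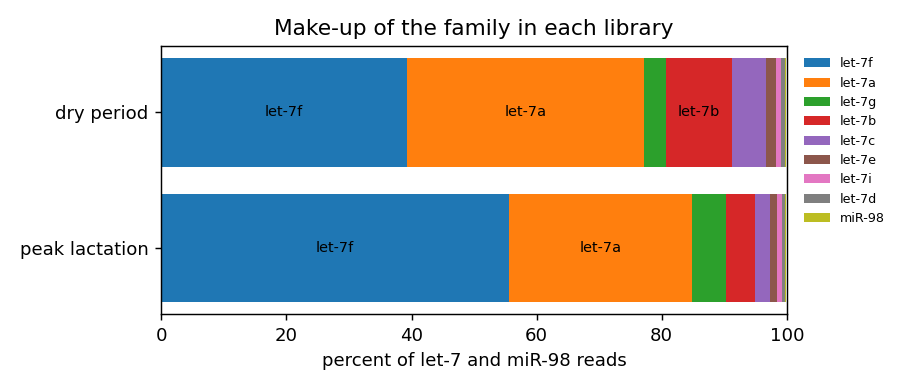
Share of let-7 family reads taken by each member, in percent, in the dry period library (top) and the peak lactation library (bottom). let-7f widens from 39.3% to 55.54%, while let-7a, let-7b and let-7c narrow.

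Some members lie beside each other in the goat genome. In the RefSeq annotation of the goat assembly, the genes of let-7a and let-7b, of let-7d and let-7f, of let-7e and miR-99b, and of let-7c with miR-99a and miR-125b lie within 100 kb of each other. Neighbours differed in their ratios. Per clean read, let-7a stood at -2.96 and let-7b at -3.79, let-7d at -2.95 and let-7f at -2.08, and let-7c at -3.75 while miR-99a stood at -1.88 and miR-125b at -1.79. let-7e stood at -3.26 and its neighbour miR-99b at -1.48. miR-100 (-1.53) and miR-125a (-1.41), for which no such pair was found here, completed the 5 miRNAs chosen for let-7 clusters. All 5 lay nearer 0 than any let-7 member. The median of all tested miRNAs was -1.44, so this did not set the 5 apart from other miRNAs. Identical mature miRNAs can come from several gene copies, so a mature level is not that of 1 gene. Among other miRNAs with at least 1000 reads in each library, those with a ratio nearest to the family's -2.58 were miR-3432 (-2.59), miR-128 (-2.72) and miR-25 (-2.75). Over the 9 members, the ratio per clean read and the number of G and C bases had a Spearman rho of -0.69, a description over points that share 2 libraries. Over the 248 other tested miRNAs, rho with GC percent was -0.17.

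The 3′ ends were sorted by what followed the identical stretch. A full-length read matched all 22 bases and stopped there, a trimmed read stopped earlier, and an extended read matched all 22 bases and carried added bases. Reads that left the listed sequence before its end were either shortened and then extended with other bases, or carried a single substitution and then matched again. A read that differed only in its final base could be either, and was counted as shortened and then extended. In the dry period, reads with base 22 replaced by adenosine and no further base were 2200 of the 2907 in this class for let-7g. For let-7b they were 20891 of 90074. The members differed widely in these ends, and their order by full-length share was the same in both libraries. let-7g was the most uniform, with 84.5% of its reads at full length in the dry period against 83.1% at peak lactation. let-7f (79.3% and 77.4%), let-7a (76.3% and 72.7%), let-7d (74.7% and 70.4%) and let-7c (70% and 67.7%) followed. let-7e lay lower, at 60.1% and 57.3%. miR-98 (39.7% and 40.4%), let-7i (39.2% and 37.7%) and let-7b (33.1% and 31.3%) had the lowest shares. The value of miR-98 includes reads that resemble let-7a and let-7c, and without them it was 70.9% and 69.2%, as described below.

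let-7b was the member with the most added bases. Extended reads were 42.3% of let-7b in the dry period against 42.2% at peak lactation, more than its full-length reads in both. Of the 114 other miRNAs with at least 200 reads in each library, 26 had a larger extended share than let-7b in the dry period against 29 at peak lactation. The listed lengths of these others vary, and miR-27a-3p and miR-148b are listed at 18 nt. Reads of such a miRNA cannot count as trimmed, and any base beyond its listed end counts as added. Identical reads also count for each name, as for miR-16a and miR-16b. These points limit every comparison of ends with the others. Its leading variants are shown because they carry this result, with the added bases in capitals.
let-7b with added uridine: ugagguaguagguugugugguuU
let-7b with added adenosine: ugagguaguagguugugugguuA
let-7b with the last base replaced by 2 adenosines: ugagguaguagguugugugguAA
The first of them had 122400 reads (16.9%) in the dry period against 9868 (17.8%) at peak lactation. The second had 121372 reads (16.8%) and 8272 (14.9%). They were thus nearly equal in the dry period, while at peak lactation uridine led. The variant ending in 2 adenosines had 29552 reads (4.08%) and 2319 (4.18%). Reads with 2 added bases made up 7.32% and 8.1% of let-7b. Its reads were shortened and then extended more often than those of any other member, at 12.4% and 14.7%, and its mean read length was 22.354 and 22.350 nt.

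let-7i combined long and short ends. Its leading variants are shown for contrast with let-7b, again with added bases in capitals.
let-7i with added uridine: ugagguaguaguuugugcuguuU
let-7i ending at base 19: ugagguaguaguuugugcu
The variant with added uridine had 8574 reads (17.1%) in the dry period against 1790 (17.5%) at peak lactation. The 19 nt variant had 6275 reads (12.5%) and 1327 (13%), against at most 1.99% for the 19 nt ends of any other member. In all, 32.2% and 31.3% of let-7i reads were trimmed and 24.4% and 26.3% extended. let-7e had extended shares of 22.4% and 22%, let-7c of 16.4% and 15.8%, and let-7g of 6.34% and 6.44%. Only miR-98 had lower values, at 3.45% and 3.88%, but its total includes reads that resemble let-7a and let-7c.

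**Figure D4:**
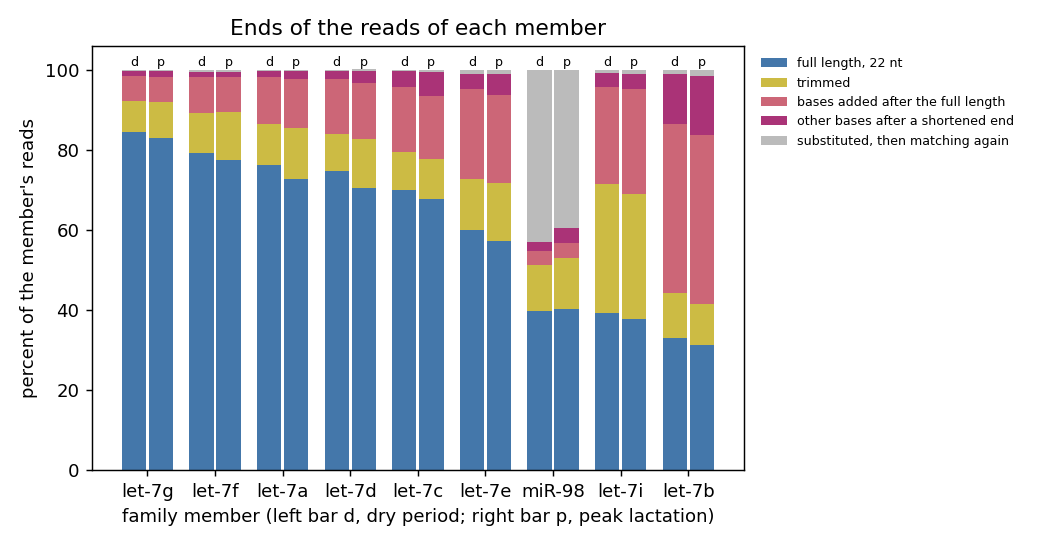
Ends of the reads of each let-7 family member, as stacked percent of that member's reads, with the dry period on the left and peak lactation on the right of each pair. The pairs are alike within each member and differ between members, from let-7g with 84.5% and 83.1% at full length to let-7b with 33.1% and 31.3%.

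The stages differed far less than the members in these ends. No member moved by over 5 percentage points in its full-length, trimmed or extended share, while such moves were made by 16.3%, 6.5% and 16.3% of the 123 miRNAs with at least 200 reads in each library. The largest moves were 4.37 points for full length, 2.96 for trimming and 1.95 for added bases. Most went the same way: the full-length share was lower at peak lactation in 8 of 9 members, with the interval of the difference below 0 in all 8, and the exception was miR-98, at 0.654 points (-3.18 to 4.58). Over reads with the base listed for miR-98 at position 19 its difference was -1.65 points (-6.59 to 2.98), so its direction was not settled at this depth. Among the 114 other miRNAs, 63 had a higher full-length share at peak lactation. The most negative difference was that of let-7d, at -4.37 points (-5.54 to -3.23), followed by let-7a at -3.67 points (-3.82 to -3.51). Trimmed reads were more frequent at peak lactation in 7 of 9 members, with intervals above 0 in 6, and in 50 of the 114 others. let-7b was the exception beyond counting error, since its trimmed share moved by -1 point (-1.26 to -0.735), while that of let-7i moved by -0.95 points (-1.93 to 0.0417). Reads ending at base 20 went from 1.82% to 2.83% of let-7a and from 1.47% to 2.14% of let-7f. Reads counted as shortened and then extended, which include those with only the final base substituted, were more frequent at peak lactation in 9 of 9 members. Intervals lay above 0 in 8, and such reads were more frequent in 45 of the 114 others. For the 114 other miRNAs, the median move was 0.476 points in full length and -0.0751 points in trimming, against -1.94 and 1.12 points for the members.

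Pooled over the family, the ends moved differently from those of its members. The full-length share of all family reads was 72.2% in the dry period against 73.2% at peak lactation, a difference of 0.997 points (0.912 to 1.08), although this share was lower at peak lactation in 8 of 9 members. The extended share went from 14.2% to 11.6%, a difference of -2.55 points (-2.61 to -2.48), although single members moved by -0.515 to 1.95 points. The pooled values weight each member by its reads, and the member with the most added bases, let-7b, lost share while let-7f gained it. With each member held at its dry period weight in both libraries, the full-length share was 72.4% and 69.7%, a difference of -2.60 points, and the extended share 14.2% and 14.3%. With equal weights the differences were -2.12 and 0.22 points. The pooled trimmed share, 10.4% and 12.2%, differed by 1.79 points and kept its direction with dry period weights (1.72) and equal weights (1.11). With fixed weights the lower extended share of the pooled family was thus no longer seen. Single members moved both ways, up in 5 and down in 4, with intervals above 0 in 2 and below 0 in 2. Among the 114 other miRNAs, 55 had a higher extended share at peak lactation.

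Pooled over the family, reads of 22 nt were 73.72% in the dry period against 74.69% at peak lactation. Reads of 23 nt went from 13.99% to 11.49%, and those of 21 nt from 8.08% to 9.206%. Within members the 22 nt share was lower at peak lactation in 9 of 9 (from 77.3% to 73.89% in let-7a and from 80.33% to 78.52% in let-7f). For miR-98, whose reads include those that resemble let-7a and let-7c, the intervals overlapped (72.21 to 74.68% and 67.79 to 74.5%). The 23 nt share was higher in 4, which were let-7a, let-7d, let-7g and let-7i. Read lengths were not compared with those of other miRNAs. The pooled mean length was 22.015 and 21.953 nt. let-7i had a mean of 21.566 and 21.608 nt.

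The base added to a full-length read depended on the member. Over single added bases, uridine made up 26.6% in let-7g in the dry period against 25.8% at peak lactation, and 33.6% and 32.4% in let-7f, where adenosine prevailed at 62.5% and 63.3%. In let-7a uridine made up 42.8% and 41.3%, and in let-7c 48.6% and 48.9%. let-7b went from 49.4% (49.2 to 49.6) to 53.6% (52.9 to 54.3), and let-7d stood at 51.1% and 53.9%, with overlapping intervals. let-7i had the largest share of uridine, at 72.5% and 70.2%. For miR-98 the values of 62.7% and 61.5% rested on 161 and 26 reads, and their intervals spanned 55 to 69.8% and 42.5 to 77.6%. let-7e (42.3% and 42.5% uridine) stood apart by its added guanosine, 14.5% and 13.4% of single added bases, against at most 4.54% in the other members. Cytidine did not exceed 0.621% in any member. The median share of uridine over the 114 other miRNAs was 31.9% and 28.2%.

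The precursors listed by the study for let-7a, let-7c, let-7d and let-7i show which added bases could come from the gene. The mature sequence is followed by UUA in let-7a, UAG in let-7c, UUC in let-7d and GGU in let-7i. A single added uridine thus equals the precursor in let-7a, let-7c and let-7d, and cannot be told apart there from a cut further downstream. In let-7i, neither added uridine nor added adenosine is the next base of the listed precursor. For let-7b, let-7e, let-7f, let-7g and miR-98 no precursor was used here. Whether their added bases, such as the guanosine of let-7e, equal the next base of the precursor was therefore not examined. A uridine added to a read trimmed to 21 nt restores the listed sequence and was counted as full length in every member.

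**Figure D5:**
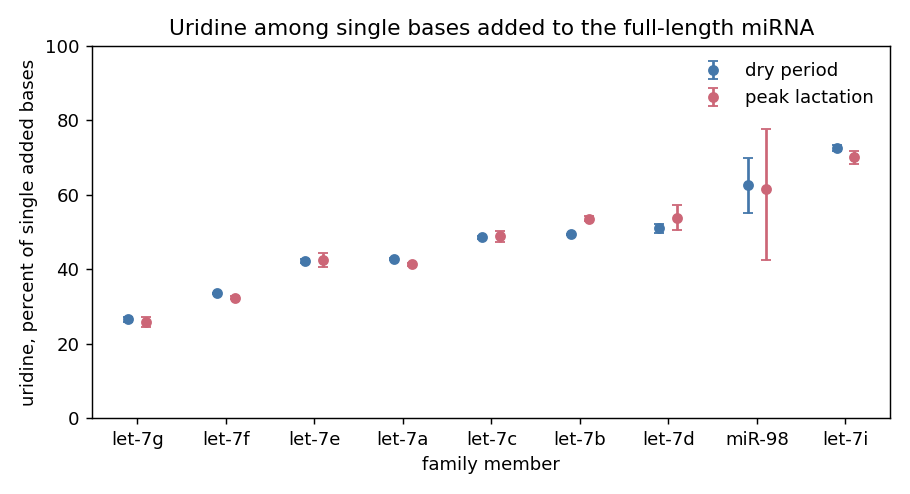
Share of uridine, in percent, among single bases added to full-length reads of each let-7 family member, in the dry period library (blue) and the peak lactation library (red), with 95% intervals of counting error. The order runs from let-7g (26.6% and 25.8%) to let-7i (72.5% and 70.2%), and the wide intervals of miR-98 rest on 161 and 26 reads.

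The low full-length share of miR-98 came with reads that resembled other members. The tags concerned are shown with positions 11 and 19 in capitals.
miR-98: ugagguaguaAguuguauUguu
miR-98 with A at position 19: ugagguaguaAguuguauAguu
miR-98 with G at position 19: ugagguaguaAguuguauGguu
Reads with uridine at position 19, as listed for miR-98, numbered 2759 (56.1% of its reads) in the dry period against 406 (58.3%) at peak lactation. Those with adenosine numbered 1884 (38.3%) and 260 (37.4%). The second tag had 1410 and 186 reads, and it is let-7a with the substitution G11A, at 0.071% and 0.072% of full-length let-7a. The third tag had 181 and 15 reads, and is let-7c with G11A, at 0.068% and 0.074% of full-length let-7c. The same substitution was read at 0.074% and 0.076% of full-length let-7f and at 0.071% and 0.072% of full-length let-7g. Counted by reads with uridine at position 19 alone, miR-98 stood at 185.8 and 25.84 RPM, its log2 ratio per clean read was -2.85 (-3.00 to -2.70), and 70.9% and 69.2% of its reads were full length. Its ratio thus stayed within counting error of the value over all its reads, while its level was lower and its full-length share was close to the 70% and 67.7% of let-7c.

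Single substitutions bear little on the more abundant neighbours. The change A19G turns let-7a into let-7c, and the same change was read in let-7f at 0.189% and 0.207% of full-length reads. At that rate let-7a would give 3782 and 538 reads of let-7c, which is 1.41% and 2.65% of the full-length let-7c reads. For U9G from let-7a to let-7e the shares were 1.91% and 2.21%, and for A17G from let-7c to let-7b they were 0.102% and 0.128%.

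The 5′ end sets the seed, and reads that began inside the listed sequence were rare. Reads that began 1 base into the listed sequence came to 0.143 per 100 family reads in the dry period against 0.119 at peak lactation, and were most frequent in let-7f, at 0.212 and 0.154. Reads with extra bases before the listed start were not counted. The opposite arm of the hairpin was almost absent for the 4 members with a listed precursor. let-7d had 188 reads of the opposite arm in the dry period against 45 at peak lactation, let-7a had 36 and 14, and let-7i had 22 and 15. let-7c had 0 in both, which allows up to 3 reads per library, or 0.202 and 0.1909 RPM. The most frequent tag of the let-7d opposite arm is shown because it had 130 and 29 of these reads.
let-7d opposite arm: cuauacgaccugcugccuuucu
The star form listed for let-7a had 44 and 25 reads, and its log2 ratio per clean read was -0.90, nearer 0 than that of let-7a.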

How the data were processed

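Small RNA of mammary gland was sequenced on the Illumina-Solexa platform, with 1 library per stage. The authors removed low-quality reads, adaptor artefacts, inserts under 18 nt and poly(A) reads, and deposited each distinct tag with its count of clean reads, neither normalized nor aligned. CASAVA is named in the submitters' processing notes, with its version not given in the sources used here. The authors' mapping and miRNA counts were not used. Tags were written with U in place of T and assigned with Python 3.11.15 as described in the report; reads were divided by clean reads, or by reads of all listed miRNAs. Ratios were described for miRNAs with at least 1 RPM in either library, and ends for those with at least 200 reads in each. Intervals of log2 ratios were obtained from how each miRNA's reads were split between the libraries, with Wilson's method (scipy 1.17.1). edgeR 4.0.16 and DESeq2 1.42.0 in R 4.3.3 gave scaling factors only. Counting was tested on simulated data. The members and all lists were chosen with earlier results of these data known. The miRNAs named are the 9 members, let-7a*, 5 miRNAs of let-7 clusters, cell type markers, and the 3 others with the nearest ratio. The substitutions, opposite arms and fixed weights were added after seeing the data. The smallest abundance taken as shown was 3 reads.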

Additional observations from a re-analysis of the deposited data

How the results depend on the processing

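With 1 library per stage, leaving out a replicate was not possible, and no alternative measures the spread between goats. The family's log2 ratio per clean read was -2.59 with an identical stretch of at least 20 nt, -1.28 with TMM factors and -1.19 with DESeq2 size factors. Under these 2 scalings 7 and 6 members lay below -1, against 20.2% and 18.3% of all tested miRNAs. Per miRNA read it was -0.49 with at least 20 nt, -0.50 with 1 mismatch allowed or with tags of at least 5 reads, -0.52 with starts shifted by up to 2 nt, and -1.45 against miRNA reads outside the family, where 7 members lay below -1, against 26.1%. The move towards lower values in the last case follows from its construction, since the family leaves its own total. The rise of let-7f in the family lay between 16.19 and 16.29 points in all 5 alternatives run for it. The pooled full-length difference was 1.24 points with at least 20 nt and 0.36 over unique tags. It turned to -2.12 with equal weights, -2.60 and -2.43 with dry period and peak lactation weights, and -1.56 without let-7b. The trimmed difference was 1.41 over unique tags, 1.11 with equal weights, 1.72 and 1.88 with dry period and peak lactation weights, and 1.95 without let-7b. The difference in added bases was -0.99 over unique tags and -0.71 without let-7b, and with equal, dry period and peak lactation weights it was 0.22, 0.07 and -0.01. The fixed stage weights and the omission of let-7b were chosen after seeing the data. Of all miRNAs, members included, 14.3% moved by over 5 points in full length when at least 1000 reads were required. Depth limits the ends of miR-98 above all, with 4922 and 696 reads.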
